A study of Mus musculus with 9 samples.

Results

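The glucocorticoid receptor reaches its hormone-binding state on a chain of molecular chaperones, and 8 genes of that chain were followed in a methylation survey of the neonatal mouse hypothalamus: Fkbp5, Fkbp4, Hsp90aa1, Hsp90ab1, Hspa8, Stip1, Ptges3 and Bag1. The survey lists 12949 differentially methylated regions (DMRs), and 9 of them overlapped the body of 1 of these genes or lay within 50 kb of it. The genes were selected by their role in the receptor's chaperone cycle, with the table already known, and each DMR was chosen by the contrast of control and MMS, since the table holds only regions that passed the authors' false discovery rate of 0.05 for it. The group means and directions given here are therefore a description of listed regions and carry no test.

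HSP70 proteins first hold the newly made receptor. An adaptor then hands it to HSP90, and p23 keeps the HSP90 complex in the form that binds hormone with high affinity. FKBP51, the product of Fkbp5, sits on that complex and lowers its affinity for glucocorticoid, whereas the closely related FKBP52, the product of Fkbp4, favours transport of the bound receptor to the nucleus. Fkbp5 is itself a target gene of the receptor, which closes a short feedback loop, and the hypothalamus is where glucocorticoids restrain the hormonal stress axis.

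All pups were C57/Bl6 males from litters cut to males alone. MMS (modified maternal separation) pups were separated from the dam for 1.5 h on each of postnatal days 4 to 6, with repeated handling to keep them supine. Control pups were littermates without separation. Hypothalamus was taken on day 6, and DNA of 10 animals per group was pooled at random into 3 samples per group, so that the spread between single animals was not measured. Methylated DNA immunoprecipitation (meDIP) was sequenced from the 3 control and 3 MMS pools, with 2 inputs and 1 IgG control. An antibody against methylated cytosine enriches the fragments, so coverage reflects both how many CpG sites a region has and how often they are methylated. The tissue is a mixture of neurons and glia, and a change in the share of a cell type cannot be told apart from a change in methylation within it.

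The deposited values are the authors' log2 means of normalised reads for each group. Values for the single pools were not used here, so no SD, interval or leave-one-out value could be formed, and the depth behind a single value is unknown. The lowest mean listed anywhere was -0.17 in control (0.889 normalised reads) and -0.24 in MMS (0.847 normalised reads). A difference against a group within 0.5 of these values depends on where that floor was set.

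Sequences from the DMRs at Fkbp5, Hsp90ab1 and beyond Ptges3 are shown first, since they include the 2 genes with DMRs of both directions and a region of coding sequence throughout. Each is the stretch of up to 300 bases with the most CpG sites in its DMR, free of annotated UTRs, read 5′ to 3′ on the plus strand of GRCm38 (mm10), with each CpG in capitals.
Past the Fkbp5 end, chr17:28398305-28398604: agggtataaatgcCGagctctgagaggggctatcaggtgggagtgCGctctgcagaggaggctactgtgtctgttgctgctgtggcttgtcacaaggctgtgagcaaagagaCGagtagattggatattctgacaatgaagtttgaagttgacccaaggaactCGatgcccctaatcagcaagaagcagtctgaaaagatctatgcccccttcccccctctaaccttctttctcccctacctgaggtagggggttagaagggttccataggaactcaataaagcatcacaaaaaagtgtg
Fkbp5 intron, chr17:28498699-28498998: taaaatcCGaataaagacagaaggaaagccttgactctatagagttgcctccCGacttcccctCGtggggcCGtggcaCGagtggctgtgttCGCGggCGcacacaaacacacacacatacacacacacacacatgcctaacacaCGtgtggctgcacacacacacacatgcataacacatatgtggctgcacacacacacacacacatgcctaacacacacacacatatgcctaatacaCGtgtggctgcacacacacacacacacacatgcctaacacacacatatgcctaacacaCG
Hsp90ab1, an exon with intron on both sides, chr17:45571332-45571631: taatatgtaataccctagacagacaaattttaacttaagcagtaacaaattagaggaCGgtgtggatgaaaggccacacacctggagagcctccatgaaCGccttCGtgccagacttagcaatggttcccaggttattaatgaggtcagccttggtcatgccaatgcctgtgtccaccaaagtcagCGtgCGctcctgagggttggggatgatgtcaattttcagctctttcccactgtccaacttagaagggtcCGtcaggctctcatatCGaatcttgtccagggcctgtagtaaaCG
Upstream of Hsp90ab1, chr17:45579309-45579608: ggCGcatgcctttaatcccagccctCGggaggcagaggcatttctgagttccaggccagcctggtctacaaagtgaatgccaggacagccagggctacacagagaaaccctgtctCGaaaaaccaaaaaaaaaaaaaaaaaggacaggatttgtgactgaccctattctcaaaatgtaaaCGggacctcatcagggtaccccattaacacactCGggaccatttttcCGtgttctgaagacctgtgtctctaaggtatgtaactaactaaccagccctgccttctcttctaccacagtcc
Coding exon of Baz2a beyond Ptges3, chr10:128110783-128110944: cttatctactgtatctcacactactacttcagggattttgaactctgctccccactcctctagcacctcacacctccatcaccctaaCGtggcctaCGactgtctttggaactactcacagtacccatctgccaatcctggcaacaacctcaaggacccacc

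The intronic stretch of Fkbp5 held 11 CpG sites, most of them ahead of its runs of the dinucleotide ca, whereas the stretch past its end held 4 CpG sites. The Hsp90ab1 stretch held 8 and its upstream neighbour 6. The complete Baz2a exon region held 2.

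Fkbp5 had 1 DMR of each direction, at opposite ends of the gene. The DMR past its 3′ end was covered in control and at the lowest listed value in MMS, and the DMR in its first part was covered in MMS and at the lowest listed value in control. The gene (ENSMUSG00000024222.17) runs over 118434 bp on the minus strand of chromosome 17, from 28399094 to 28517527 in GENCODE vM21, and 99442 bp separated the regions. No other DMR of the table lay within 50 kb of the gene.

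The 3′ DMR (chr17:28398305-28399022, 718 bp) had a log2 mean of 4.71 in control (26.2 normalised reads) and -0.24 in MMS (0.847 reads), a log2 difference of -4.95 for MMS minus control. Of the DMRs higher in control, 98.3% had a smaller difference. An MMS mean within 0.5 of its lowest value was rare in that class, at 4.6% of the 4844 DMRs higher in control. The region began 72 bp past the last base of the GENCODE gene. It held 5 CpG sites (0.696 per 100 bp), more per length than 16.7% of the table's DMRs, and 54.7% of its bases were annotated repeat.

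The intronic DMR (chr17:28498465-28499047, 583 bp) had a log2 mean of -0.17 in control (0.889 reads) and 3.40 in MMS (10.6 reads), a difference of 3.57. A control mean within 0.5 of the floor was common among DMRs higher in MMS, at 52.7% of 8105 DMRs, and 56.4% of that class had a smaller difference. The level in MMS was low for the class, since 11.7% of DMRs higher in MMS had a lower one. The region held 14 CpG sites (2.40 per 100 bp), more per length than 88.3% of the table, with 48.2% GC and 53.2% repeat.

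**Figure D1:**
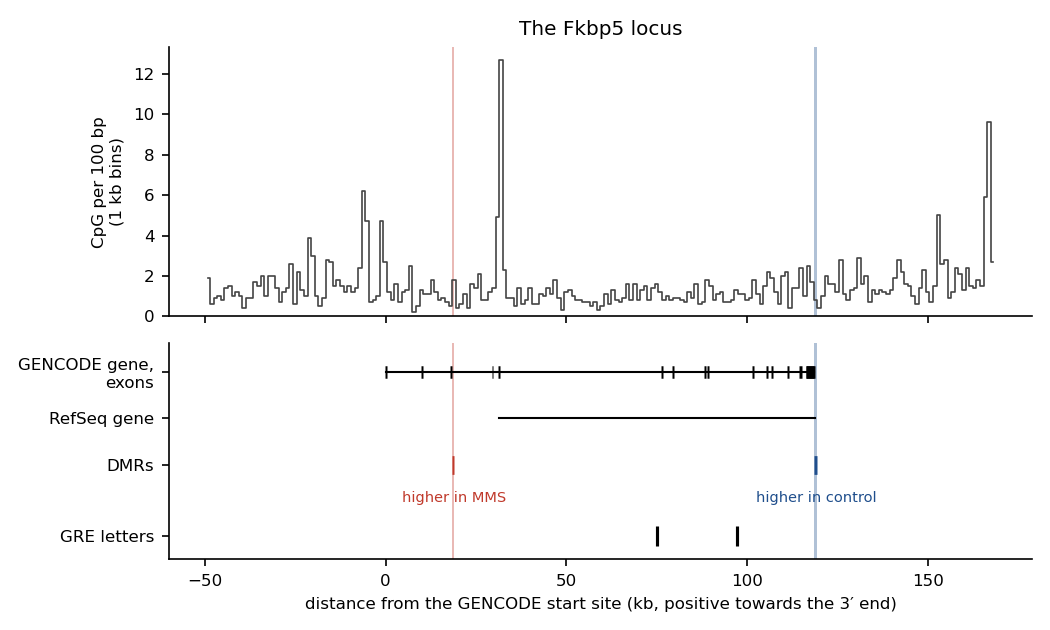
The Fkbp5 locus by distance from the GENCODE start site (kb, positive towards the 3′ end). The upper panel gives CpG sites per 100 bp in 1 kb bins, and the lower panel gives the GENCODE gene with the exons of 2 coding transcripts, the extent of the RefSeq gene, both DMRs (red higher in MMS, blue higher in control) and the exact glucocorticoid response elements. The bin with the most CpG sites (12.7 per 100 bp) lies at the RefSeq start and neither DMR touches it.

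Which of the DMRs counted as inside Fkbp5 depended on the annotation. In GENCODE the intronic DMR lay 18480 bp inside the start site, in intron 3 of the coding transcript with 14 exons, intron 2 of the one with 13 and intron 1 of one with 11, and wholly within exon 2 of a retained-intron transcript. RefSeq starts the gene at 28486149, which is also the start of a GENCODE transcript of 11 exons, and there the same DMR lay 12316 bp upstream of the gene. RefSeq also ends the last exon later, at 28398753, so that 270 bp (37.6%) of the 3′ DMR fell inside the gene. With GENCODE the DMR in the body was thus the one higher in MMS, and with RefSeq the one higher in control.

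Both DMRs lay away from the CpG-rich start of the RefSeq transcript. Over the gene and 50 kb on each side, 218434 bp in all, CpG density was 1.48 per 100 bp and the median 1 kb bin held 1.20. The densest bin (12.7 per 100 bp) lay 31933 bp into the GENCODE gene, at the RefSeq start, and the RefSeq promoter window of 300 bp held 32 CpG sites. Of the 218 bins, 88.1% were less dense than the intronic DMR and 11.5% were less dense than the 3′ DMR.

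Glucocorticoid receptor binds as a dimer to paired arms, and the letters AGAACA, any 3 bases and TGTTCT were searched on both strands (the pattern reads the same on both). Within the Fkbp5 window 2 exact elements were found, both inside the gene and neither inside a DMR. They are shown with 20 bases on each side and the element in capitals.
Element in intron 5 of the transcript that starts at 28486149, chr17:28420301-28420355: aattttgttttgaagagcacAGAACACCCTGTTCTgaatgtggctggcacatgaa
Element in intron 1 of the same transcript, chr17:28442399-28442453: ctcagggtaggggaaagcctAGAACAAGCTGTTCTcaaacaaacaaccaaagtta

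Of 417 stretches of chromosome 17 of the same length as the Fkbp5 window, 5.04% held at least 1 exact element and 2 (0.48%) held as many as 2. The element at 28420321 lay 21299 bp from the 3′ DMR and the element at 28442419 lay 56032 bp from the intronic DMR, the nearest distances for each. With up to 1 mismatch allowed in each arm the window held 22 elements, the nearest of them 5780 bp from the 3′ DMR and 6372 bp from the intronic DMR. No DMR of the table held an exact element, and 397 (3.07%) held one with the mismatches, none of them among the 9. Single arms were present in 4 of the 9 (44.4%) and in 41.1% of the table, and the intronic Fkbp5 DMR held 1. A match of letters is not a measured binding site.

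Of the 8 genes, 5 had a DMR in the body or within 50 kb: Fkbp5, Fkbp4, Hsp90ab1, Stip1 and Ptges3. Over all 21938 protein-coding genes 54.7% did, so the chaperone genes stood near the background. A DMR in the body was found in Fkbp5 and Hsp90ab1, 2 of 8 genes against 18.9% of all genes. DMRs of both directions lay around the same 2 genes, against 15.0% of all genes. The opposite directions at Fkbp5 were known when the genes were chosen, so that count is a description alone. Fkbp5 is long, and the genes of 0.5 to 2 times its length (59.2 to 236.9 kb, 3506 genes) had a DMR in the body in 47.0%, within 50 kb in 69.9% and in both directions in 25.1%. The other 7 genes span 5497 to 19266 bp, and genes under 0.5 times the length of Fkbp5 had a DMR within 50 kb in 50.4%.

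**Figure D2:**
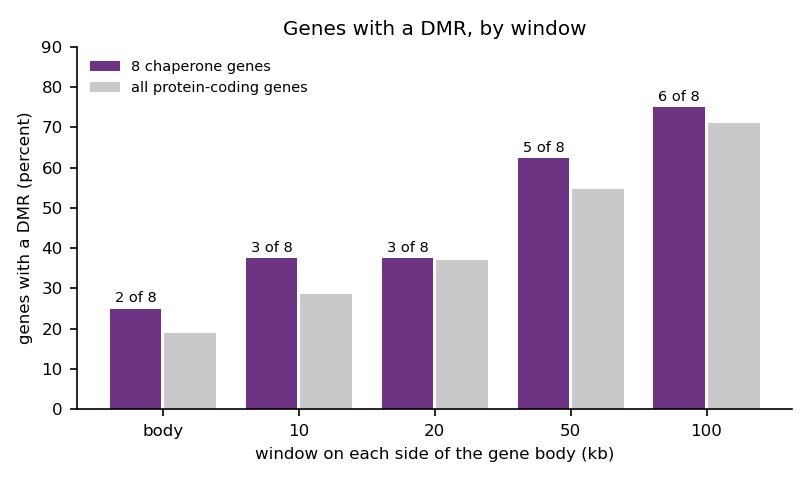
Percent of genes with a DMR in the body or within 10, 20, 50 or 100 kb of it, for the 8 chaperone genes (purple, with the number of genes) and all protein-coding genes (grey). The chaperone genes went from 2 of 8 in the body to 6 of 8 at 100 kb, and all genes from 18.9% to 71.1%.

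Among the 9 DMRs, 5 were higher in MMS (55.6%) and 4 were higher in control. Of all listed DMRs, 62.6% were higher in MMS. The higher group's log2 mean was between 3.40 and 4.79 in all 9. The lower group was within 0.5 of its lowest value in 4 of them, which were both Fkbp5 regions, the Fkbp4 region and the Stip1 region nearer to the gene. None lay within 250 bp of the start site of a member gene.

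**Figure D3:**
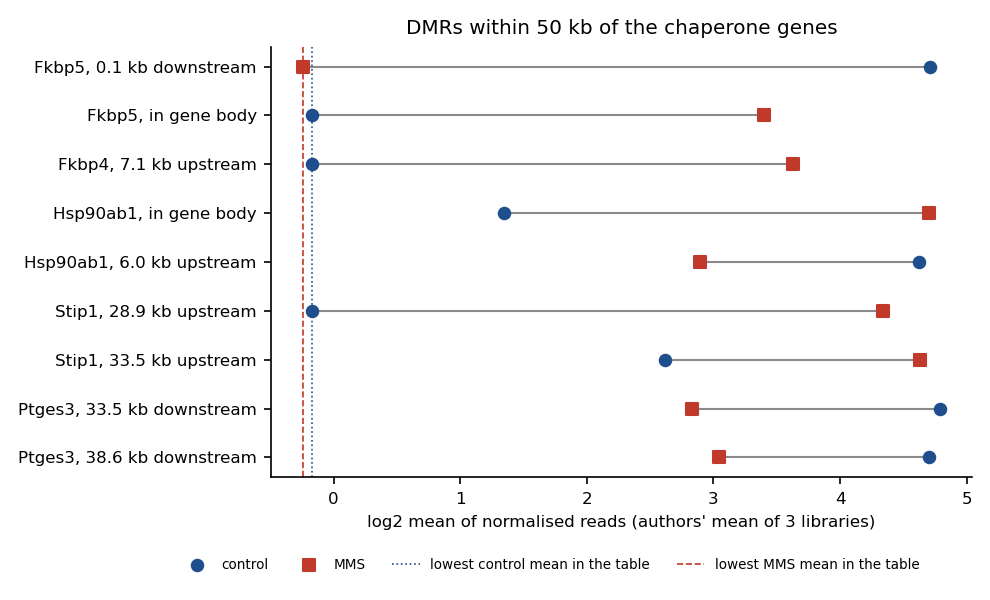
The authors' log2 means of normalised reads for control (blue circles) and MMS (red squares) at the 9 DMRs, each joined by a line, with no error because no value per pool was used. Dotted and dashed lines mark the lowest control (-0.17) and MMS (-0.24) means of the table, and both Fkbp5 regions reach one of them from opposite sides.

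Fkbp4 had a single DMR, higher in MMS like the Fkbp5 intron. It lay 7147 bp upstream of the start site on chromosome 6 (166 bp), with a log2 mean of -0.17 in control (0.889 reads) and 3.63 in MMS (12.4 reads), a difference of 3.80. The region held 4 CpG sites (2.41 per 100 bp) at 60.8% GC, and it fell in an intron of Gm10069, a gene of the antisense class that starts 80 bp from Fkbp4 on the opposite strand. The next DMR upstream lay 54252 bp from Fkbp4, just outside the window, in Gm10069 and Pzp, with log2 means of 2.06 in control and 4.70 in MMS.

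The HSP90 genes differed in whether a DMR was listed near them. Hsp90ab1, which encodes the constitutive cytosolic HSP90, had 2 DMRs of opposite direction 7597 bp apart. Hsp90aa1, the inducible form, had none within 50 kb, and the nearest lay 121541 bp away and was higher in control.

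The DMR in Hsp90ab1 (chr17:45570426-45571711, 1286 bp) was the widest of the 9, wider than 91.7% of the table. Its log2 mean was 1.35 in control (2.55 reads) and 4.70 in MMS (26.0 reads), a difference of 3.35 with neither group near its lowest value. It reached from exon 3 to exon 6 of its coding transcript with 11 exons and covered 642 bp of coding sequence, and its nearest edge lay 1560 bp inside the start site. It held 26 CpG sites (2.02 per 100 bp), the most of the 9.

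Hsp90ab1 has processed pseudogenes, and a short read from a shared exon can be placed on either copy. At 95% identity over 100 bp the DMR matched 1 place elsewhere, 112 bp in the pseudogene Gm6368 on chromosome X, which is 8.71% of the region. At 90% identity 5 matches were found, in Gm7002, Gm13498, Gm7198 and Gm6368, the longest 207 bp. The part of reads from these copies in the value was not tested.

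The upstream DMR of Hsp90ab1 (chr17:45579309-45580143, 835 bp) lay 6038 bp before the start site and in no annotated gene. It had a log2 mean of 4.62 in control (24.6 reads) and 2.89 in MMS (7.41 reads), a difference of -1.73. Repeats made up 36.8% of it, and 77 other places in the genome matched it at 95% identity, the longest over 114 bp (13.7% of the region). The 3′ DMR of Fkbp5 had 21 such matches, the longest over 181 bp (25.2%), and the other 6 DMRs, the Fkbp5 intron among them, had none. At 90% identity the upstream Hsp90ab1 DMR matched 6077 other places and the 3′ DMR of Fkbp5 matched 1100, and those 6 again had none. The part of reads from such copies in either value was not tested.

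Stip1 encodes HOP, the adaptor that joins HSP70 to HSP90. Its 2 DMRs were both higher in MMS, and both lay upstream inside the neighbouring gene Macrod1, an ADP-ribose hydrolase, in its intron 3. The nearer one (chr19:7068890-7069195, 306 bp, 28923 bp upstream) had a log2 mean of -0.17 in control (0.889 reads) and 4.34 in MMS (20.3 reads), a difference of 4.51 that was larger than that of 91.4% of DMRs higher in MMS. The other (chr19:7073452-7073844, 393 bp, 33485 bp upstream) was covered in both groups, at 2.62 in control (6.15 reads) and 4.63 in MMS (24.8 reads), a difference of 2.01. They lay 4256 bp apart and were poor in CpG sites, with 2 and 3 sites (0.654 and 0.763 per 100 bp).

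Ptges3 encodes p23, which joins the mature HSP90 complex. Its 2 DMRs were both higher in control, and both lay downstream inside Baz2a, a chromatin remodelling subunit that silences ribosomal DNA. The region at chr10:128110783-128110944 (162 bp, 33511 bp downstream) was coding sequence throughout, in exon 4 of a Baz2a transcript with 30 exons, with log2 means of 4.79 in control (27.7 reads) and 2.83 in MMS (7.11 reads), a difference of -1.96. The region at chr10:128115894-128116205 (312 bp, 38622 bp downstream) covered 109 bp of coding exon 9 of that transcript and the introns beside it, with 4.70 in control (26.0 reads) and 3.04 in MMS (8.22 reads), a difference of -1.66. They lay 4949 bp apart, and neither group was near its lowest value in either. The region at 38622 bp was the farthest of the 9 from its gene, and beyond the window the next DMRs of Ptges3 lay at 65321 and 91297 bp in Rbms2, with differences of -0.98 and 5.16.

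Hspa8, which encodes the constitutive HSP70 that holds the receptor first, had no DMR within 50 kb. Its nearest were at 75809 bp downstream and 84302 bp upstream, both higher in control, with log2 means of 4.89 and 5.33 in control and 3.39 and 4.06 in MMS. Bag1, a nucleotide exchange factor of HSP70 that modulates the receptor, had its nearest DMR 124119 bp away, also higher in control. A region that is not listed may have been covered in no library or may have missed the authors' threshold, and the table does not separate these.

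**Figure D4:**
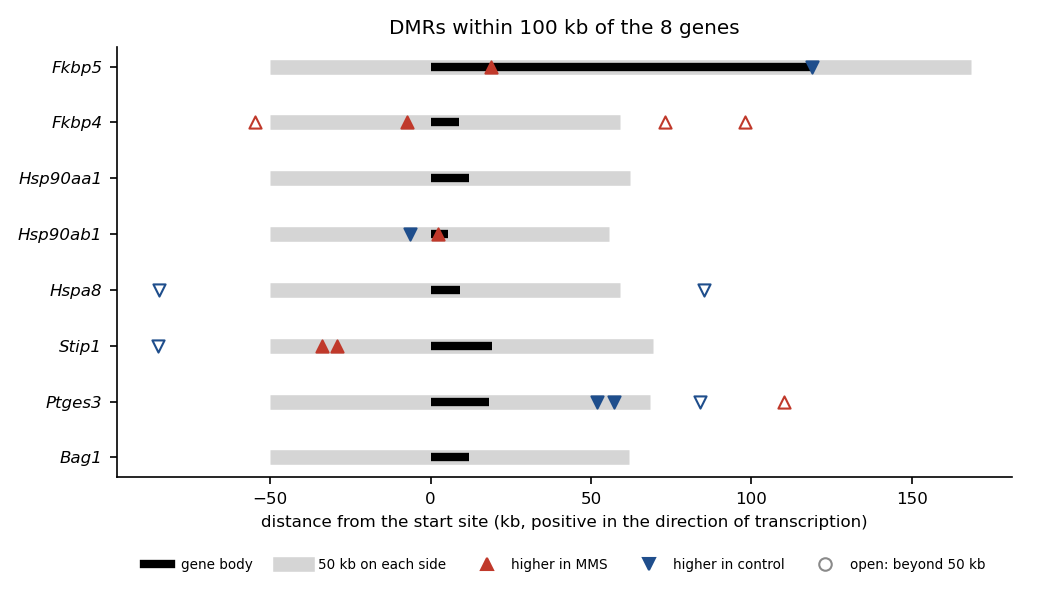
DMRs within 100 kb of the 8 genes by distance from each GENCODE start site (kb, positive in the direction of transcription). Black bars are gene bodies, grey bars 50 kb on each side, upward triangles DMRs higher in MMS and downward triangles DMRs higher in control, with open symbols beyond 50 kb. The filled symbols are the 9 DMRs, of which those of Fkbp5 and Hsp90ab1 point both ways.

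The sequence content of the 9 DMRs lay inside the range of the table (CpG density 0 to 8.42 per 100 bp, GC content 24.3 to 69.5%). Median CpG density was 1.23 per 100 bp (0.654 to 2.41), against 1.32 over the table, and median GC content was 50.5% (46.1 to 60.8%) against 47.4%. Median width was 393 bp against 544 bp. The 5 DMRs higher in MMS had a median CpG density of 2.02 and the 4 higher in control 1.10, where the table's classes had 1.26 and 1.43. With so few regions the order within the 9 is only a description.

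**Figure D5:**
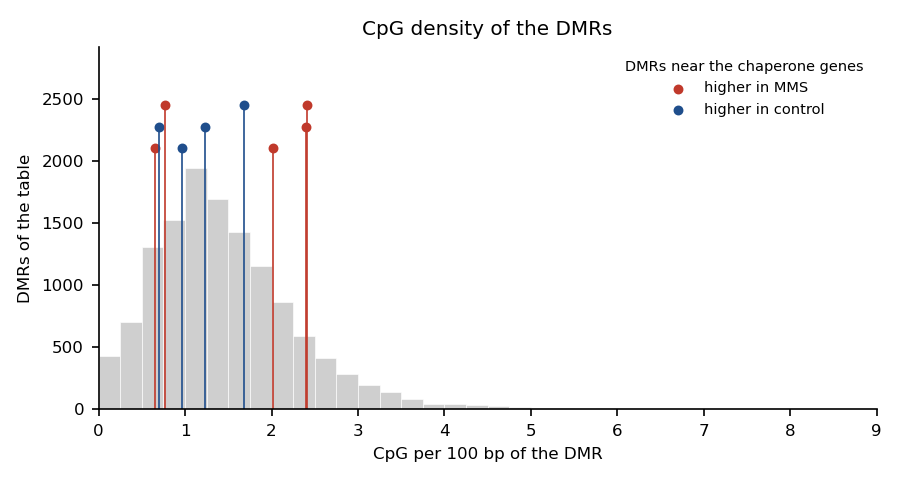
CpG sites per 100 bp over all DMRs of the table (grey, number of DMRs per bin) and at the 9 DMRs near the chaperone genes (vertical lines, red higher in MMS, blue higher in control, line height without meaning). The 9 lie between 0.654 and 2.41, with the Fkbp5 intron (2.40) and Fkbp4 (2.41) at the upper end and the 3′ DMR of Fkbp5 (0.696) near the lower end.

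The wider families of the chaperone cycle were near the background as well in the share of genes with a DMR within 50 kb. In 59 further genes 32 (54.2%) had a DMR within 50 kb, against 54.7% of all protein-coding genes, and 13 had one in the body, against 18.9% of all genes. These made 59 pairs of a gene and a DMR, 35 higher in MMS and 24 higher in control, where all genes made 21698 pairs with 13485 higher in MMS. DMRs of both directions lay around 13 of the 59 genes, a larger share than the 15.0% of all genes. They were 6 of 15 FKBP genes, 3 of 16 HSP90 genes and co-chaperones and 4 of 21 HSP70 and HSP40 genes. No gene of the BAG family and neither corticosteroid receptor had both. The larger share was not tested.

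Of 15 further members of the FKBP family, the prolyl isomerases that Fkbp5 and Fkbp4 belong to, 8 (53.3%) had a DMR. Those with one in the body included Fkbp15 (1.85 in control and 4.39 in MMS) and Fkbp6 (0.23 and 4.56), both higher in MMS on the log2 scale. Fkbp6 and Fkbpl were among those with the most, 3 DMRs each, and each had both directions.

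Of 16 further HSP90 proteins and co-chaperones 8 had a DMR. Sgtb, a small glutamine-rich co-chaperone, had the most, 4 DMRs, of which the 2 in its body were higher in control (5.35 against 4.03 and 5.50 against 4.10 in MMS). Cdc37, which brings kinases to HSP90, had a body DMR at 0.96 in control and 3.70 in MMS. Unc45a, a myosin chaperone, had one at 2.66 and 4.79. Nudc had one in the other direction, at 5.08 in control and 2.69 in MMS.

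Of 21 HSP70 proteins and HSP40 partners 12 (57.1%) had a DMR. Hspa12a, Hspa12b and Dnajb6 had body DMRs, in Hspa12a 2 higher in MMS (3.97 and 5.75, 1.46 and 4.26) and 1 higher in control (5.90 and 4.89). The body DMRs of Hspa12b (5.74 and 4.66) and Dnajb6 (5.19 and 3.90) were higher in control. Hspa4 had one at -0.17 in control and 3.70 in MMS. Hspa1l had one at 1.16 and 3.68, and the same 2 DMRs counted for its neighbours Hspa1a and Hspa1b. Of the BAG family Bag3, Bag5 and Bag6 had 1 flanking DMR each (3 of 5 genes), with log2 differences of 2.72, 2.67 and -1.49.

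The corticosteroid receptors differed from each other in the listing. Nr3c2, the mineralocorticoid receptor, had 2 DMRs in its body, both higher in control (5.44 against 3.91 and 6.17 against 5.28 in MMS). Nr3c1, the glucocorticoid receptor itself, had none in the body or within 50 kb. Nr3c2 is the longer gene, at 345571 bp against 108877 bp for Nr3c1. Of genes of 0.5 to 2 times the Fkbp5 length, which include Nr3c1, 47.0% had a DMR in the body and 69.9% within 50 kb. The part of gene length in the contrast of the receptors was not tested.

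The layout of Fkbp5, with 1 DMR higher in MMS in the body and 1 higher in control in the flanks, was shared by 249 other protein-coding genes of 21938. The closest to it in length were Pan3 (118342 bp), Dglucy (117925 bp) and Stat4 (120042 bp). In all 3 the body DMR had control at -0.17, with MMS at 3.03, 3.65 and 3.24 in that order. The flanking DMRs lay farther out than that of Fkbp5, at 19819, 20045 and 47561 bp, and MMS was above its lowest value there (3.17, 5.16 and 4.53).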

How the data were processed

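MeDIP libraries of 3 control and 3 MMS pools, 2 inputs and 1 IgG control were sequenced on the Ion Proton. After alignment to mm10, the authors ran MACS2 (2.1 per the labels) for broad peaks against inputs, with the human genome size setting, compared the groups with DiffBind and DESeq2 or edgeR, normalised to pooled inputs and IgG, and annotated with HOMER (4.8). Both inputs and the IgG control carry the methylcytosine antibody in their labels and were identified by their titles. The deposited table gives log2 means of normalised reads over all 6 libraries and per group, here read as control (its untreated column) and MMS (its treated column). It also holds the authors' log2 difference, p-value and FDR, which were not used. It was read as group means without SD or n, depth per value is unknown, and the planned limma test per library was not run.

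The genes, lists and rules were chosen with earlier results of these data known. All genes are reported, with every DMR within 50 kb. Of each list, the gene with the most DMRs and those with a DMR in the body are named. 1 gene of the lists is not reported here, and sequence is printed for 5 of the 9 DMRs. Genes with the layout of Fkbp5 are ranked by length.

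Directions are MMS minus control of the deposited log2 means. Genes came from GENCODE vM21 and sequences, repeats and promoters from RefSeq GRCm38.p6, and all regions lay within the chromosomes. Promoters of Fkbp5, Fkbp4, Stip1, Ptges3 and Bag1 matched by symbol, and Hsp90aa1, Hsp90ab1 and Hspa8 did not. Genome matches used BLAST 2.17.0 (95% identity, 100 bp). Other tools were Python 3.11.15, numpy 2.4.6, pandas 2.3.3, scipy 1.17.1 and matplotlib 3.10.9. Counting functions were tested on simulated data. Alternatives were other windows, thresholds, widths, gene ends, pseudocounts and match limits, with RefSeq gene ends added after seeing the data.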

Additional observations from a re-analysis of the deposited data

How the results depend on the processing

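The number of DMRs near the 8 genes, 9 as reported, depended on the window: 2 in gene bodies, 5 at 10 kb, 5 at 20 kb and 17 at 100 kb. Genes with a DMR numbered 2, 3 and 3 in bodies, at 10 kb and at 20 kb, and the share of all genes was 18.9%, 28.6% and 37.0%, with 71.1% at 100 kb. In bodies alone 100.0% of the DMRs were higher in MMS with GENCODE. With RefSeq bodies, added after seeing the data, the count was again 2 DMRs in 2 genes, against 18.8% of all genes. The Fkbp5 region was then the 3′ DMR in place of the intronic one, so 1 was higher in each group. Without DMRs that had a group near its lowest value, 5 DMRs at 3 genes were left (Hsp90ab1, Stip1 and Ptges3) against 43.5% of all genes, 2 higher in MMS (40.0%) and 3 higher in control, and Fkbp5 and Fkbp4 had none. At a log2 difference of at least 2, 6 DMRs at 4 genes were left, 5 higher in MMS (83.3%) and 1 in control, and at a width of at least 300 bp 7 DMRs at 4 genes, 4 higher in MMS and 3 in control. The share of all genes was 43.9% at a log2 difference of at least 2, 45.8% at a width of at least 300 bp, 69.9% for genes of 0.5 to 2 times the Fkbp5 length and 44.9% for all gene types. Adding 1 or 5 reads to both groups cannot reverse a sign, so only the sizes of the 9 differences were compared. Those against a group at its lowest value shrank most. The 3′ DMR of Fkbp5 went from -4.95 to -3.88 and -2.41, and its intronic DMR from 3.57 to 2.61 and 1.40.

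No paired analysis was possible because the table was read as group means, and leaving out a pool and the planned limma fit were not possible for the same reason. The spread between pools behind any difference is thus unknown.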
